A study of Mus musculus with 16 samples.

Results

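The 10 genes described here encode transcription factors of the oligodendrocyte lineage: Olig1, Olig2, Sox10, Sox8, Nkx2-2, Nkx6-2, Myrf, Zfp488, Tcf7l2 and St18. They were taken by symbol from a table of 53801 genes, and each symbol matched 1 row. The study isolated oligodendrocytes from mouse brain by magnetic activated cell sorting, in which antibody-coated magnetic beads retain cells with a chosen surface protein, and sequenced poly(A) RNA with directional libraries. All mice were male and 8 months old at sampling, 4 in each of 4 groups, and each library carries the number of 1 mouse. WT_NCD and WT_HFD are wild-type C57BL/6J Jcl mice on a control diet (12.5% of energy as fat) or a high-fat diet (60.0% of energy as fat), fed for 6 months from the age of 2 months. App_NCD and App_HFD are homozygous App NL-G-F/NL-G-F knock-in mice on the same diets. The knock-in places a humanised amyloid-β sequence with the Swedish, Beyreuther/Iberian and Arctic mutations in the mouse's own App gene, so App keeps its own promoter and is altered in every cell type that uses it. The wild-type mice were purchased and the knock-in mice were bred as inbred lines, so genotype cannot be told apart from the source of the mice.

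Oligodendrocytes wrap axons in myelin, and they arise from dividing precursors that stop dividing, pass through a short premyelinating stage and then switch on the myelin genes. The course is run by a small network of transcription factors: OLIG2 and SOX10 mark the lineage from precursor to mature cell, NKX2-2 and TCF7L2 act around the onset of differentiation, and MYRF is switched on in postmitotic cells and drives the myelin genes. Many of these factors stay on in the adult cell, where SOX10 and MYRF are needed to keep myelin gene expression going.

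Library totals ran from 64538297 to 217925484 counts. Library App_NCD 553 stood apart, with 18928 genes above 0 (27151 to 30617 in the other 15 libraries) and 39.4% of counts from mitochondrial genes (1.22% to 4.62%), so results on the 10 genes are given with all 16 libraries and without it. The label of the cells was checked against marker lists: the 25 mature oligodendrocyte genes, which include Mbp and Mog, summed to between 42469 and 73792 CPM (counts scaled to a common library size) in each library, against 295 to 1148 CPM for 11 precursor genes. Genes of other cells were present too, with 13 microglial genes at 2628 to 5832 CPM in wild type and 8397 to 16880 CPM in App, 10 astrocyte genes at 2127 to 6388 CPM and 6 choroid plexus and ependymal genes at 6922 to 35439 CPM. Values are RNA levels in a mixture of cells, in which fewer cells of a type and less RNA per cell cannot be told apart.

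All 10 genes passed the filter on low counts, and the lowest count of any of them in any library was 346. Positions are given on mm10 with GENCODE mouse release 21. Olig2 (chromosome 16, 91225457 to 91228677) and Olig1 (chromosome 16, 91269772 to 91271933, a single exon) are basic helix-loop-helix genes 41.1 kb apart, on the same chromosome as the knock-in gene App, which lies 6.05 Mb from Olig2. Sox10 (chromosome 15, 79154908 to 79165240) and Sox8 (chromosome 17, 25565892 to 25570686) are SoxE genes of the HMG-box kind. Nkx2-2 (chromosome 2, 147177546 to 147194243) and Nkx6-2 (chromosome 7, 139579376 to 139582797) encode homeodomain proteins. Tcf7l2 (chromosome 19, 55741820 to 55933654) encodes an HMG-box partner of β-catenin in Wnt signalling. Zfp488 (chromosome 14, 33967070 to 33978764) and St18 (chromosome 1, 6487231 to 6860940) encode zinc finger proteins, and Myrf (chromosome 19, 10208272 to 10240748) encodes a membrane-bound factor that cleaves itself to release its DNA-binding part. Exons of Olig1, Nkx6-2, Nkx2-2 and Sox8 overlap those of Gm15966, Inpp5a, Nkx2-2os and 2810468N07Rik on the opposite strand. Whether strand was used in counting is not given in the sources used here, so reads of these pairs may not have been told apart.

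Related genes can share reads where their sequences are identical, so the longest identical coding stretch is shown for both pairs of close relatives among the 10. It was 26 bases long for Sox10 (from codon 110) and Sox8 (from codon 105), and 17 bases long for Olig1 (from codon 98) and Olig2 (from codon 112). For Sox10 and its relative Sox9, which is no member, it was 44 bases.
Sox10 and Sox8: gccttcatggtgtgggcacaggcggc
Olig1 and Olig2: aagatcaacagccgcga

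The level of each gene was first compared per length, as CPM per kb of exon over the 15 libraries without App_NCD 553. Exon length was that of all annotated exons of a gene, merged. This was 8562 bases for Myrf, 8775 for Tcf7l2 and 2875 for Nkx2-2, against 5674, 3715 and 2120 bases in single transcripts. For Olig2 (2530 bases) and Zfp488 (4301 bases) both lengths were equal. Olig1, which acts in oligodendrocyte maturation and repair, had the highest median at 331, and it exceeded the next gene in 15 of 15 libraries. Myrf at 91.5 and Olig2 at 83.9 were close, with Myrf above Olig2 in 9 of 15 libraries. Sox10 followed at 56.7, Nkx6-2 at 49.0 and Sox8 at 38.0, each above the next in at least 14 of 15 libraries. St18 was at 14.2. Nkx2-2 at 4.03 and Zfp488 at 3.99 traded places, with Nkx2-2 higher in 8 of 15 libraries, and Tcf7l2 was lowest at 1.54. By transcript length Myrf would lie further above Olig2, and Nkx2-2 and Tcf7l2 would stand higher against Zfp488. The close values of Myrf and Olig2, and of Nkx2-2 and Zfp488, are therefore given for merged exons only. The upper end of the order by merged exons held bHLH and myelin-driving factors. Factors known from the onset of differentiation, Nkx2-2 and Tcf7l2, were at the lower end of that order.

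**Figure D1:**
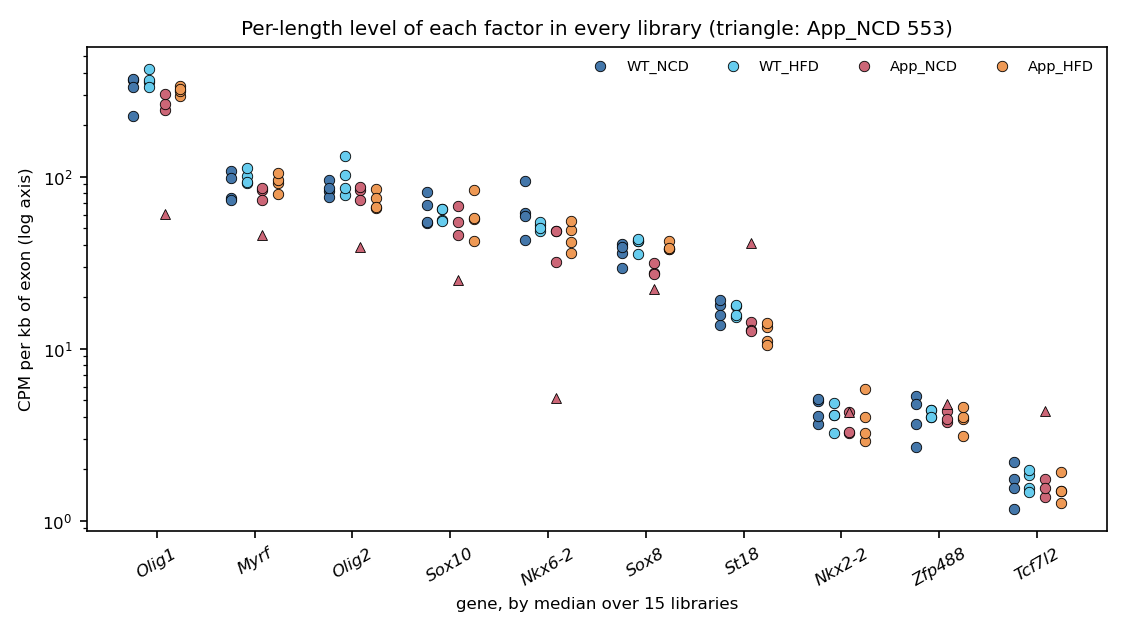
CPM per kb of merged exons (log axis) of each factor, with 1 point per library coloured by group and a triangle for App_NCD 553. Olig1 lies highest (median 331) and Tcf7l2 lowest (median 1.54), and the triangle falls below the other libraries for Olig1 and Nkx6-2 and above them for St18 and Tcf7l2.

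On the control diet, the question was whether these factors differed between knock-in and wild-type mice. With all 16 libraries none of the 10 passed the test (edgeR, adjusted p under 0.05), where 8.39% of all tested genes did, and 7 of the 10 log2 fold changes were below 0 (median -0.28). Without App_NCD 553, 1 of 10, Sox8, was lower in App, and 17.5% of all tested genes passed. All 10 log2 fold changes were then below 0, with a median of -0.26 against -0.051 over all tested genes. Scaled to mature oligodendrocyte genes instead, 9 of 10 were above 0, with a median of 0.15 against 0.35 over all tested genes. The 10 had the lower median under each scaling, but a scaling moves all genes nearly alike, so the second is no separate evidence.

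Sox8 is a close relative of Sox10 and shares part of its work in myelin gene expression. It stood at 113, 126, 91.2 and 121.9 CPM in WT_NCD 4, 5, 11 and 12. In App_NCD 537, 538 and 545 it was at 85.9, 98.0 and 85.0 CPM, and in App_NCD 553 at 69.3 CPM. Most App libraries lay below the wild-type ones, but the lowest wild-type library was inside the App range. The log2 fold change was -0.37 ± 0.109 (SE, n = 4 and 3; edgeR adjusted p = 0.0329) without App_NCD 553 and -0.42 ± 0.135 (n = 4 and 4; edgeR adjusted p = 0.0662) with it, where DESeq2 (adjusted p = 0.0121) and limma-voom (adjusted p = 0.000723) also called it. The call without App_NCD 553 was lost when any of WT_NCD 4, 5 or 12, WT_HFD 3 or 16, App_NCD 537 or 545 or App_HFD 560 was left out as well, with adjusted p up to 0.154. With libraries scaled to the mature oligodendrocyte genes, Sox8 was at 0.034 and not called, where 4929 of 22322 tested genes were called.

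Nkx6-2, a homeodomain gene of myelinating oligodendrocytes, had the lowest log2 fold change on this diet, -0.62 ± 0.221 without App_NCD 553 (edgeR adjusted p = 0.0661). DESeq2 called it lower without that library (-0.60, adjusted p = 0.0484), beside 22.1% of all tested genes. Its levels were 82.0, 117, 180.1 and 112 CPM in WT_NCD 4, 5, 11 and 12, and 61.0, 91.9, 92.5 and 9.82 CPM in App_NCD 537, 538, 545 and 553. WT_NCD 11 was far above the other wild-type libraries and App_NCD 553 far below the other App libraries, and the groups overlapped. With all 16 libraries the value was -0.94 ± 0.446, and its 95% interval ran from -1.89 to 0.0062.

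St18, a zinc finger factor of the Myt family, was at 88.8, 115, 101 and 123 CPM in WT_NCD 4, 5, 11 and 12, and at 91.7, 83.2, 81.9 and 267 CPM in App_NCD 537, 538, 545 and 553. App_NCD 553 was above every wild-type library, whereas the other 3 App libraries were near or below the lowest wild-type library. With all 16 libraries the log2 fold change was 0.29 ± 0.307, and without App_NCD 553 it was -0.35 ± 0.129 (edgeR adjusted p = 0.0707). Its sign in edgeR thus depended on that library. Limma-voom called St18 lower with 16 libraries (-0.47, adjusted p = 0.00303) and without App_NCD 553 (-0.52, adjusted p = 0.00127). Olig1 did not pass by edgeR either (-0.29 ± 0.153 without App_NCD 553, edgeR adjusted p = 0.204), but limma-voom called it lower there (-0.29, adjusted p = 0.0411). Olig1 was at 489, 786, 799 and 715 CPM in WT_NCD 4, 5, 11 and 12 and 525, 571, 653 and 131 CPM in App_NCD 537, 538, 545 and 553.

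For the other 6 factors the intervals without App_NCD 553 also limit the size of a difference. They ran from -0.67 to 0.19 for Sox10 (164 to 247 CPM in WT_NCD, 139 to 206 CPM in App_NCD) and from -0.47 to 0.15 for Myrf (629 to 921 and 624 to 737 CPM). Olig2, which specifies the lineage, spanned -0.42 to 0.24 (192 to 240 and 185 to 219 CPM). The low-level Nkx2-2 spanned -0.79 to 0.13, Tcf7l2 -0.53 to 0.28 and Zfp488 -0.46 to 0.33. These are edgeR intervals, and none of them reaches -1, a fold of 0.5. Limma-voom called Myrf lower on this diet (-0.31, adjusted p = 0.0304 with 16 libraries, -0.35 and 0.0193 without App_NCD 553), where it called 33.2% and 33.7% of all tested genes.

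**Figure D2:**
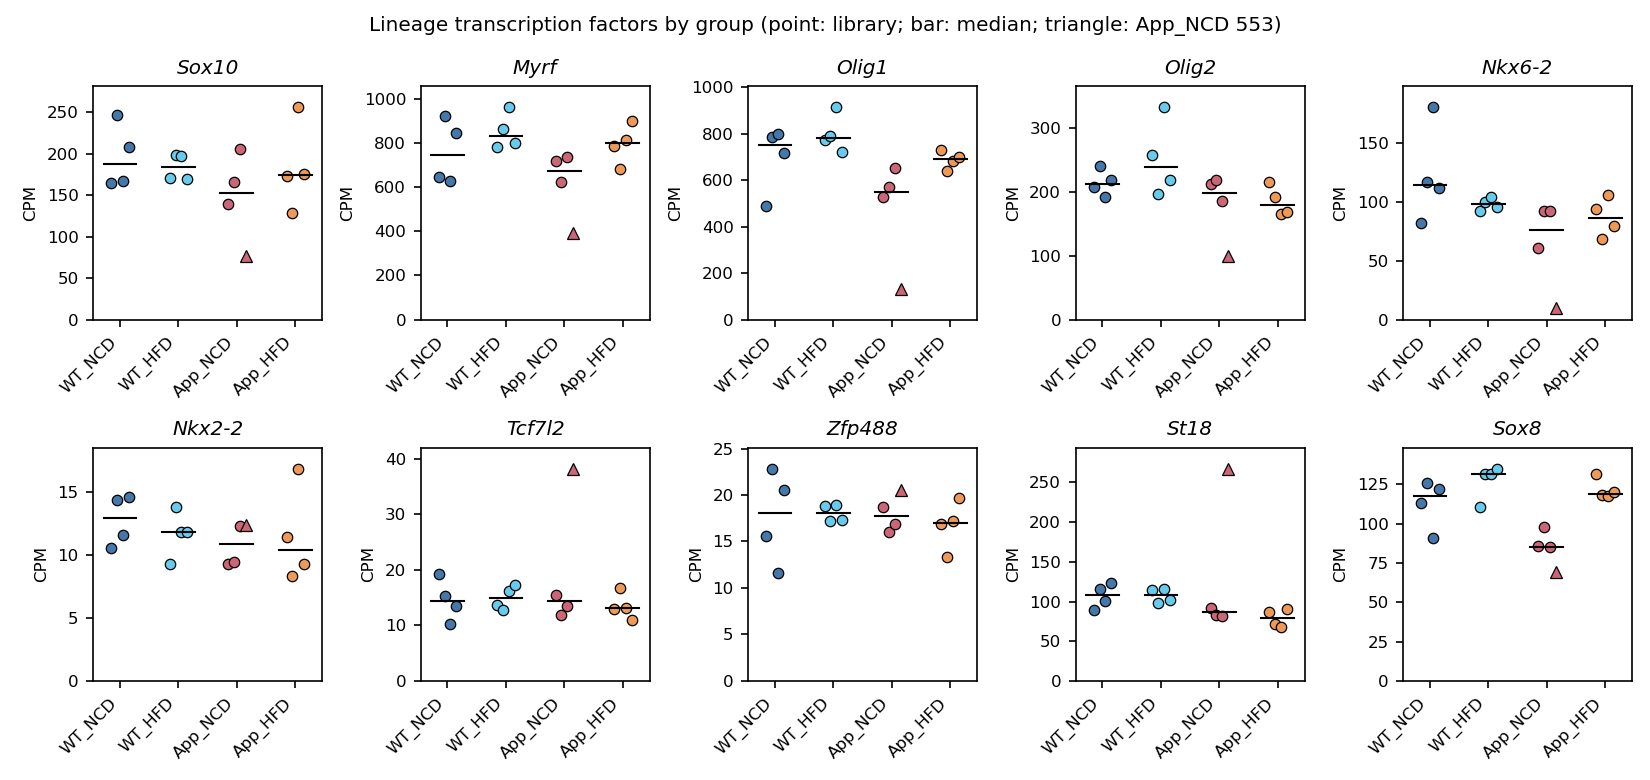
CPM of each factor by group, with 1 point per library, the group median as a bar and a triangle for App_NCD 553. Sox8 lies higher in App_HFD (118 to 132 CPM) than in App_NCD (69.3 to 98.0 CPM), and St18 lies lower in App_HFD (67.8 to 90.9 CPM) than in WT_HFD (98.1 to 116 CPM).

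On the high-fat diet, edgeR called none of the 10 with all 16 libraries, beside 7.14% of all tested genes, and limma-voom called St18 (-0.47, adjusted p = 0.00251), beside 30.7%. Without App_NCD 553, which is in neither group but enters the estimate of the spread, 2 of 10 were lower in App, St18 and Olig2, beside 19.3% of all tested genes. All 10 log2 fold changes were again below 0 (median -0.15, all tested genes -0.016). Under scaling to mature oligodendrocyte genes 8 of 10 were above 0 (median 0.15, all tested genes 0.28).

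St18 was at 114, 98.1, 116 and 102 CPM in WT_HFD 2, 3, 15 and 16. It was at 86.3, 71.6, 67.8 and 90.9 CPM in App_HFD 547, 559, 560 and 561. Every App library was below every wild-type one, and St18 was the only 1 of the 10 without overlap here, where 10.0% of all tested genes lay wholly lower and 15.0% wholly higher. The log2 fold change was -0.46 ± 0.119 (n = 4 and 4, edgeR adjusted p = 0.0125 without App_NCD 553), and -0.44 ± 0.307 (adjusted p = 0.55) with all 16 libraries. The call was lost when App_HFD 560 was also left out (adjusted p = 0.0628). Fitted on these 8 libraries alone, St18 was lower by a log2 fold change of -0.49 (edgeR adjusted p = 0.0129).

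Olig2 was at 258, 197, 332 and 218 CPM in WT_HFD 2, 3, 15 and 16, and at 214, 191, 166 and 168 CPM in App_HFD 547, 559, 560 and 561. The groups overlapped, and WT_HFD 15 was the highest library of all 16. Its log2 fold change was -0.46 ± 0.143 without App_NCD 553 (edgeR adjusted p = 0.0332) and -0.44 ± 0.220 with it (adjusted p = 0.316). Without WT_HFD 15 as well, the change was -0.30 (adjusted p = 0.125), and the call was also lost without WT_NCD 4 or 12, WT_HFD 2, App_NCD 545 or App_HFD 559, 560 or 561. Scaled to the mature oligodendrocyte genes, Olig2 stood at -0.15 and St18 at -0.16. Neither was called, where 4549 of 22322 tested genes were called without App_NCD 553.

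The remaining 8 did not pass on this diet. Olig1 had a log2 fold change of -0.24 ± 0.141 without App_NCD 553 (721 to 912 CPM in WT_HFD, 638 to 731 CPM in App_HFD). Those of Sox10, Nkx2-2 and Sox8 lay nearest 0, at -0.026, -0.047 and -0.082. Sox8, called on the control diet, had a 95% interval of -0.30 to 0.13 here, and its genotype difference was not shown to differ between diets (interaction 0.28 ± 0.148 without App_NCD 553, 95% interval -0.032 to 0.60).

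**Figure D3:**
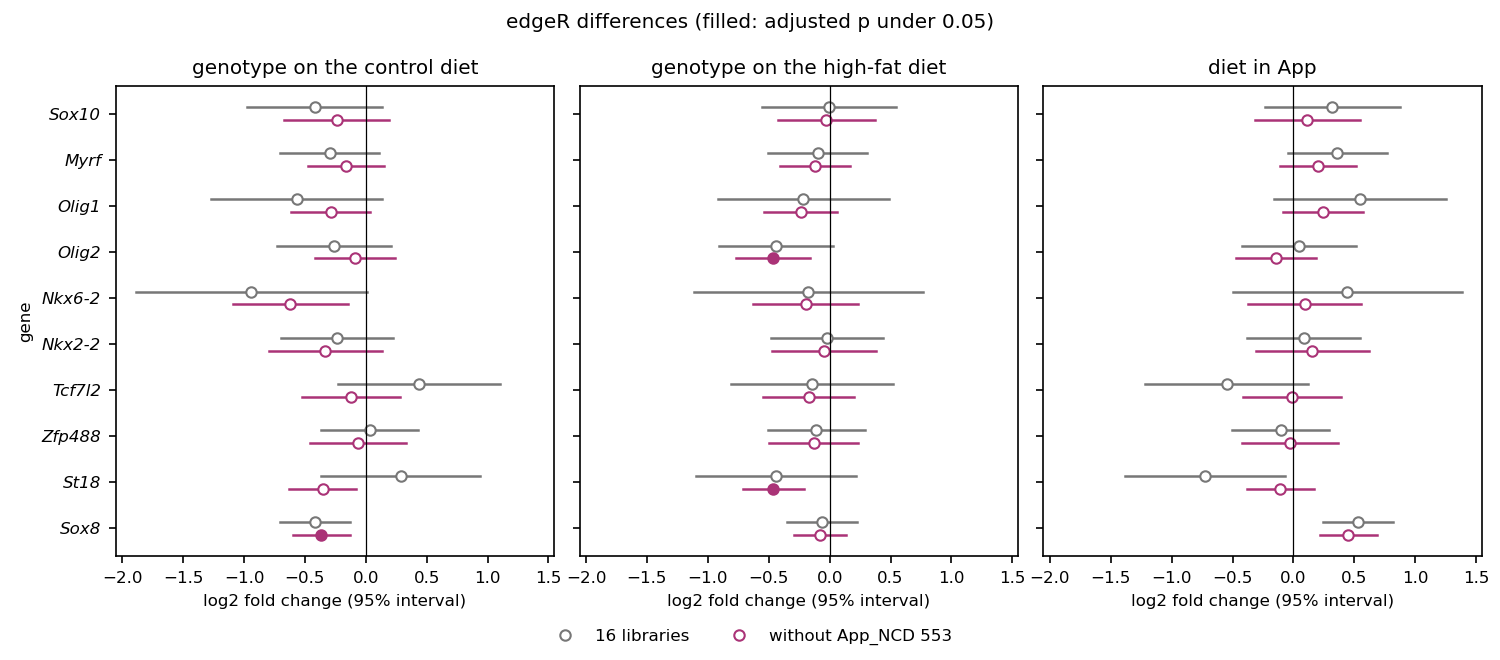
Log2 fold changes from edgeR with 95% intervals for App against wild type on each diet and for high-fat against control diet in App, in grey for all 16 libraries and in purple without App_NCD 553; filled points have an adjusted p under 0.05. The filled points are Sox8 on the control diet (-0.37) and Olig2 (-0.46) and St18 (-0.46) on the high-fat diet, each only in the fit without App_NCD 553.

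Averaged over both diets, edgeR called none of 10 with all 16 libraries (17% of all tested genes; 2 of the 10 had an unadjusted p under 0.05, against 1 on the control diet and 0 on the high-fat diet), and 3 of 10 were lower in App without App_NCD 553 (33.6% of all tested genes). With 16 libraries DESeq2 called Sox8 (adjusted p = 0.0255, 23.7% of all tested genes called), and limma-voom called Myrf, Olig1, Olig2, St18 and Sox8 (46.6% of all tested genes called), all lower in App. St18 was lower by a log2 fold change of -0.41 ± 0.088 (n = 8 and 7, edgeR adjusted p = 0.00223), and it passed in each of the 15 fits that left out 1 more library, with adjusted p up to 0.0137. Nkx6-2 (-0.41 ± 0.150, adjusted p = 0.0470) passed in 1 of those 15 fits, the one without WT_NCD 4, and without WT_NCD 11 it was at -0.25 (adjusted p = 0.133). Sox8 (-0.22 ± 0.0741, adjusted p = 0.0297) passed in 5 of the 15, and lost its call without WT_NCD 4, 5 or 12, WT_HFD 3, 15 or 16, App_NCD 537 or 545, or App_HFD 559 or 560. Olig2 (-0.28, adjusted p = 0.0549) and Olig1 (-0.26, adjusted p = 0.0629) lay just beyond the threshold of 0.05. The median over the 10 was -0.21 against -0.042 over all tested genes.

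The direction of these differences depended on what the libraries were scaled to. Of the 25 mature oligodendrocyte genes, 10 were lower in App and none higher in the same averaged comparison without App_NCD 553, where 33.6% of all tested genes passed in either direction. Their median was -0.28, and 24 of 25 had a log2 fold change below 0. Scaled to them, 8 of the 10 factors were above 0 and none was called, with a median of 0.14. The median of all tested genes moved to 0.31, and 9312 of 22322 were called, 8623 of them higher in App. St18 at -0.046 and Nkx6-2 at -0.050 were the 2 that stayed below 0. The smallest adjusted p of the 10 was 0.138, for Myrf at 0.21.

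The high-fat diet was compared with the control diet in each genotype. By edgeR no factor passed in wild type (0 of 10, and 0% of all tested genes, with 419 at an unadjusted p under 0.05) or in App (0 of 10, 0% of all tested genes, 2586 at an unadjusted p under 0.05). The same held without App_NCD 553 in both (0% each, 1139 and 1576 unadjusted), and for the interaction (0% in both fits, 639 and 614 unadjusted). Averaged over the genotypes, edgeR called 0.0459% of all tested genes with 16 libraries and 0.255% without App_NCD 553, none of them among the 10. With 16 libraries Sox8 was called higher on the high-fat diet in this average by DESeq2 (0.34, adjusted p = 0.0410, with 0.51% of all tested genes called) and limma-voom (0.25, adjusted p = 0.0224, with 2.44%).

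Sox8 was the factor with the clearest separation by diet. In App_HFD 547, 559, 560 and 561 it stood at 132, 118, 118 and 119.9 CPM, and each of these exceeded all App_NCD libraries given above. It was the only 1 of 10 without overlap in App. There 3.23% of all tested genes lay wholly higher on the high-fat diet and 2.46% wholly lower (4.36% and 3.84% without App_NCD 553). The log2 fold change of Sox8 was 0.53 ± 0.135 (edgeR adjusted p = 0.391), or 0.45 ± 0.110 without App_NCD 553 (adjusted p = 0.278), and no gene of the table passed this edgeR test. DESeq2 (0.50, adjusted p = 0.0285) and limma-voom (0.42, adjusted p = 0.0230) called it with 16 libraries, where they called 0.469% and 0.74% of all tested genes. In wild type Sox8 was at 111, 132, 132 and 135 CPM in WT_HFD 2, 3, 15 and 16, which overlapped WT_NCD (log2 fold change 0.17 ± 0.134).

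St18 had the lowest diet difference in App with 16 libraries, -0.73 ± 0.308 (edgeR adjusted p = 0.396), but at -0.11 ± 0.128 without App_NCD 553 this value rested on that library. Tcf7l2 likewise went from -0.55 to -0.010 and Olig1 from 0.55 to 0.24. In wild type the 10 differences ran from -0.32 (Nkx6-2) to 0.23 (Olig2), and all the 95% intervals contained 0.

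Relative levels of related factors were compared within libraries, which cancels any common scale. The log2 ratio of Olig2 to Olig1 was -1.69 ± 0.232 in WT_HFD and -1.90 ± 0.168 in App_HFD (SD, n = 4 and 4; exact two-sided permutation p = 0.143). It was -1.23 ± 0.595 in App_NCD, and the diet difference in App was -0.67 (exact permutation p = 0.0857, adjusted p = 0.571) or -0.40 without App_NCD 553 (p = 0.114). The ratio of Sox8 to Sox10 was -0.78 ± 0.182 in WT_NCD and -0.53 ± 0.137 in WT_HFD (n = 4 and 4, exact permutation p = 0.114). Of 12 such tests, which also covered Nkx2-2 over Nkx6-2, none passed, and the smallest p that 4 libraries against 4 allow is 0.0286. After adjustment over the 12 tests, a single ratio at that p would not pass. This outcome therefore cannot decide whether the ratios differ.

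Across the 15 libraries without App_NCD 553, log2 CPM of the factors correlated as follows, given as a description over libraries that share groups and scaling. Of the 45 pairs, 39 had a Pearson r above 0, with a median of 0.35. Sox10 and Nkx2-2 were the closest pair (r = 0.89, or 0.49 with App_NCD 553 included), followed by Myrf and Zfp488 (0.77) and Olig2 and St18 (0.69). The lowest r was -0.43, for Nkx6-2 and Tcf7l2, and the 3 lowest pairs all involved Tcf7l2. The neighbours Olig1 and Olig2 had an r of 0.43, and the relatives Sox10 and Sox8 one of 0.30.

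Among 14878 genes averaging 1 CPM or more, the pattern most like that of Sox10 was of Cdc42ep1 (r = 0.892), Nkx2-2 and Adamts4 (0.862), the last a protease gene on the mature oligodendrocyte list. Myrf was most like Pacs2 (0.967), Arnt2 (0.957) and Sort1 (0.956), and Olig1 was most like Ndrg1 (0.956), Sept8 (0.926) and Ephb1 (0.924). Nkx6-2 was most like Eml2 (0.965), D630044L22Rik (0.962) and Gpr62 (0.945). St18 was most like Pak7 (0.956), Il17rb (0.946) and Sema6a (0.927), and Sox8 was most like Pxmp2 (0.932), Tcp11l2 (0.876) and Tle6 (0.864). Olig2 had its highest values with Mob3b (0.823), Mbnl2 (0.808) and Avpi1 (0.807), lower than the best match of any other factor. Zfp488 was most like Zfp748 (0.909), Taf9b (0.896) and Gm5113 (0.887), Nkx2-2 was most like Sox10, Cdc42ep1 (0.877) and Kcnk5 (0.830), and Tcf7l2 was most like Mdk (0.864), AI849053 (0.855) and Gm15601 (0.826).

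Library App_NCD 553 moved the factors apart from each other. Against the mean of the other 3 App_NCD libraries, its log2 CPM was lower by most for Nkx6-2 (-3.03), Olig1 (-2.15), Sox10 (-1.14) and Olig2 (-1.05), and higher for St18 (1.64) and Tcf7l2 (1.49). Myrf (-0.81) and Sox8 (-0.37) were lower by less, and Zfp488 (0.26) and Nkx2-2 (0.27) were a little higher. Olig1 was at 131 CPM there, against 525, 571 and 653 CPM in App_NCD 537, 538 and 545, and St18 at 267 CPM against 91.7, 83.2 and 81.9 CPM. The order of the shifts followed the GC content of the transcripts, with a Spearman rho of -0.95 across the 10 and -0.55 across 14799 tested genes averaging 1 CPM or more, as a description of this library. The part of GC content in the shift of any 1 gene was not tested.

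To show the contrast in base composition, 120 coding bases are printed for the factors at each end, from the stretch whose GC content is nearest that of the whole transcript, with G and C in capitals. The transcripts hold 41.7% GC for St18 (codons 85 to 124 shown), 47.3% for Tcf7l2 (codons 298 to 337), 61.1% for Olig1 (codons 17 to 56) and 64.3% for Nkx6-2 (codons 9 to 48).
St18: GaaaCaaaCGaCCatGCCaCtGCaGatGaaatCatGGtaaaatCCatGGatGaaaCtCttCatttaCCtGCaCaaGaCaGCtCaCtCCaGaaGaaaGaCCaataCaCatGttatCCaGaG
Tcf7l2: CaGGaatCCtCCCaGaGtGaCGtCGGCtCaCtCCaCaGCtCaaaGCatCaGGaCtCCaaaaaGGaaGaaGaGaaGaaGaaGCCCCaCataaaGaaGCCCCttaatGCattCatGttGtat
Olig1: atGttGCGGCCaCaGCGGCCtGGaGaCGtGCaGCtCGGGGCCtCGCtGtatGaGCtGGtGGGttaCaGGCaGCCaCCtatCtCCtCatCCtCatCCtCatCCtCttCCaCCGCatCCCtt
Nkx6-2: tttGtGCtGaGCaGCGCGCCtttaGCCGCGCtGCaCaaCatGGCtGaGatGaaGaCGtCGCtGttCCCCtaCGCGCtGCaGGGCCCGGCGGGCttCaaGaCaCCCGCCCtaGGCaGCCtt
St18 and Tcf7l2 gained in App_NCD 553, while Olig1 and Nkx6-2 lost. Beside genes within 2 percentage points of their own GC content, the shifts of the 10 fell between the 35.6 percentile (Nkx6-2) and the 88.8 percentile (Tcf7l2).

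**Figure D4:**
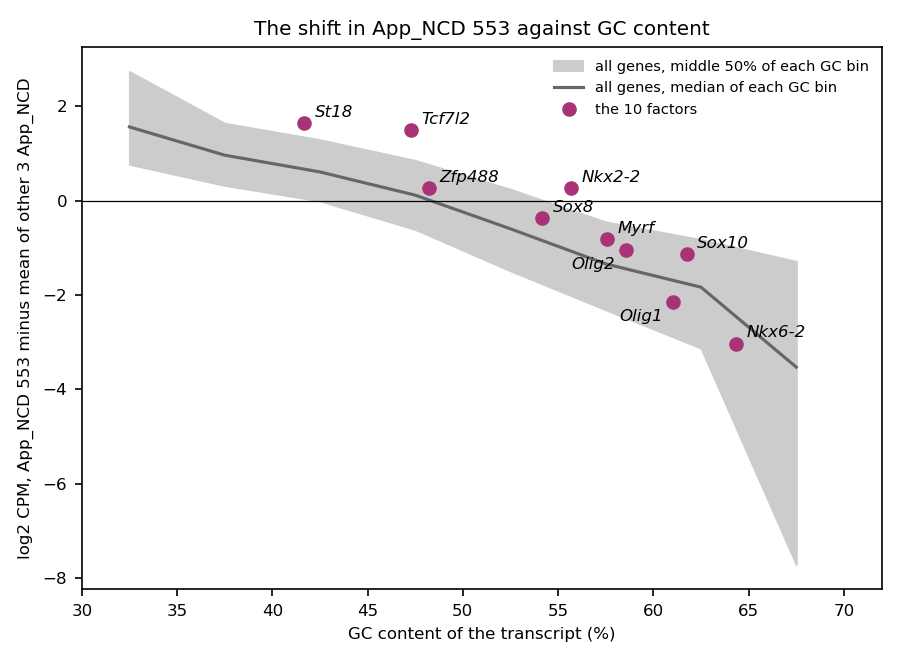
Difference in log2 CPM between App_NCD 553 and the mean of the other 3 App_NCD libraries against transcript GC content (%), for the 10 factors (points) and for all tested genes averaging 1 CPM or more (line, median; band, middle 50% of each GC bin). The points run from 1.64 for St18 at 41.7% GC to -3.03 for Nkx6-2 at 64.3% GC, along the slope of the band.

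Relatives of the factors that are not among the 10 were read beside them. Of 13 paralogues, 10 were tested, and none passed with 16 libraries on either diet. Without App_NCD 553, 2 of 10 were lower in App on the control diet, Lef1 (-0.73 ± 0.210, edgeR adjusted p = 0.0279) and Sox9 (-0.67 ± 0.197, adjusted p = 0.0310), and 3 of 10 on the high-fat diet, these and Tcf7 (-0.80 ± 0.214, adjusted p = 0.0163). Of all 22322 tested genes, 17.5% and 19.3% were called on these diets, with 1612 and 1906 genes lower. Lef1 and Tcf7 encode relatives of TCF7L2 that also partner β-catenin, and Sox9 is a SoxE gene that astrocytes use. The medians of the list were -0.46 and -0.51. In the same 15 libraries, of 10 astrocyte genes, among which Sox9 is itself counted, 4 were lower and none higher on the control diet and 2 were lower and 1 higher on the high-fat diet. The part of astrocytes in the Sox9 result was not tested.

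A list of 20 Wnt pathway genes ran from receptors to partners and targets of TCF7L2. Of these, 2 were lower in App on the control diet with all 16 libraries, the co-repressor gene Tle1 (-0.72 ± 0.166, edgeR adjusted p = 0.0140) and the feedback gene Axin2 (-0.65 ± 0.168, adjusted p = 0.0268). Axin2 was also lower on the high-fat diet (-0.62 ± 0.168, adjusted p = 0.0343), and no gene of the list was higher on either diet. Without App_NCD 553, 4 of 20 were lower on the control diet, with Pygo1 (-0.60 ± 0.144, adjusted p = 0.0100) and the Wnt inhibitor gene Nkd1 (-0.47 ± 0.151, adjusted p = 0.0426) added, and 3 of 20 on the high-fat diet. In either direction, 8.39% and 7.14% of all tested genes were called on these diets with 16 libraries, and 17.5% and 19.3% without App_NCD 553. Lower alone were 410 and 446 of 21768 genes with 16 libraries, and 1612 and 1906 of 22322 without App_NCD 553. Whether the list differed from all genes was not tested. The medians of the list were -0.21 and -0.04 on the control and high-fat diets. Tcf7l2 itself did not pass, with 15.4, 12.0 and 13.5 CPM in App_NCD 537, 538 and 545 and 10.2 to 19.2 CPM in WT_NCD. The 10 endothelial genes, of cells that also use Wnt signalling, moved too, with 5 lower on the control diet and 4 on the high-fat diet without App_NCD 553, and their part in the Wnt list was not tested.

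Among 24 other regulators that promote differentiation, Rxrg, a retinoid X receptor gene, was higher in App on the control diet (3.24 ± 0.383, edgeR adjusted p = 7.81e-05) and on the high-fat diet (3.18 ± 0.384, adjusted p = 9.26e-05) with all 16 libraries. Klf6 was higher on the high-fat diet (0.74 ± 0.197, adjusted p = 0.0326). Without App_NCD 553, 3 were higher and 4 lower on the control diet, the last being Hdac3, Thra, Tmem98 and Zfp24, and 4 were higher and 2 lower on the high-fat diet. Tmem98, whose product binds MYRF, was lower on the control diet (-0.59 ± 0.169, adjusted p = 0.0259). The medians of the list, -0.13 and -0.06, lay near those of all genes, -0.051 and -0.016. Of all tested genes, 17.5% and 19.3% were called on these diets without App_NCD 553, and 8.39% and 7.14% with 16 libraries.

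Of 20 regulators that hold cells in the precursor state, Hey1, a Notch target, was lower in App on the control diet with 16 libraries (-0.81 ± 0.171, edgeR adjusted p = 0.00780), and Rbpj, the DNA-binding partner of Notch, was higher (1.03 ± 0.260, adjusted p = 0.0235), while none passed on the high-fat diet. Without App_NCD 553, 4 were lower and 1 higher on the control diet, and 6 were lower and 1 higher on the high-fat diet, with medians of -0.32 and -0.36. Of all tested genes, 8.39% and 7.14% were called on these diets with 16 libraries. Without App_NCD 553 the shares were 17.5% and 19.3%, with medians of -0.051 and -0.016. The inhibitor of differentiation gene Id4 was lower on both (-0.78 ± 0.139 and -0.77 ± 0.127, adjusted p = 0.00131 and 0.000597), and so was Sox2 (-0.51 and -0.38). Like Sox9, both are also used by astrocytes, whose genes are given above.

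Stage markers were read beside the factors, and those of the precursor and newly formed stages did not each move in the same direction. Of 11 precursor genes, Cspg4, the NG2 proteoglycan gene, was higher in App on the control diet (1.94 ± 0.433, edgeR adjusted p = 0.0115) and on the high-fat diet (2.15 ± 0.436, adjusted p = 0.00649), and Pdgfra, the growth factor receptor gene of precursors, was lower on the high-fat diet (-1.46 ± 0.282, adjusted p = 0.00469). Without App_NCD 553 Cspg4 was at 2.26 and 2.13 and Pdgfra at -1.48, all called. Of 8 newly formed oligodendrocyte genes tested, Itpr2 was higher on both diets (0.68 ± 0.163 and 0.58 ± 0.163, or 0.56 on each without App_NCD 553). Without App_NCD 553, Bmp4 (-1.13 ± 0.260, edgeR adjusted p = 0.00632) and Tmem2 (-0.44 ± 0.133, adjusted p = 0.0310) were lower on the high-fat diet. Of 25 mature genes, Enpp2 was lower on the high-fat diet (-1.14 ± 0.292, adjusted p = 0.0263), and without App_NCD 553 Enpp2 (-1.17) and Opalin were lower (-0.62 ± 0.172, adjusted p = 0.0184). With 16 libraries, the choroid plexus genes Ttr (-1.16), Folr1 (-1.09) and Kl (-1.27) were also lower on the high-fat diet, while Aqp1, Foxj1 and Ccdc153 were not called. The part of choroid plexus cells in the Enpp2 result was not tested.

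Genes of other cells also differed between genotypes. Of 13 microglial genes, 9 were higher in App on the control diet and 11 on the high-fat diet with all 16 libraries (11 on each without App_NCD 553), among them Tyrobp (3.43 ± 0.342 on the control diet, edgeR adjusted p = 1.54e-05) and Trem2 (2.75 ± 0.514, adjusted p = 0.00341). Of 8 pericyte and smooth muscle genes, 3 were lower on the control diet and 1 on the high-fat diet with 16 libraries, and 6 and 3 without App_NCD 553. Of 6 choroid plexus and ependymal genes, 0 and 3 were lower with 16 libraries, and 1 and 4 without it. Of 10 neuronal genes, edgeR called 0 on either diet with 16 libraries, and 1 was lower on each without App_NCD 553. Beside these lists and the stage markers, edgeR called 8.39% and 7.14% of all tested genes on the control and high-fat diets with 16 libraries. Without App_NCD 553 it called 17.5% and 19.3%. The part of these other cells in the levels of the 10 factors and of the lists above was not tested, apart from the scaling to mature oligodendrocyte genes given above.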

How the data were processed

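Sequencing of poly(A) RNA gave 1 library per mouse, 4 in each of 4 groups. The authors deposited a table of estimated counts per gene, made per the submitters' processing notes with fastp 0.23.2, HISAT2 2.2.1, bedtools 2.25.0 and StringTie 2.2.1 on mm10; the annotation is not given in the sources used here. Rounding the expected counts changed nothing, since each was already whole.

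From these, genes were filtered with filterByExpr (21768 kept, 22322 without App_NCD 553), scaled by TMM and tested with edgeR 4.0.16 (quasi-likelihood, robust; limma 3.58.1, R 4.3.3) on 4 group means, with 7 contrasts, Benjamini-Hochberg adjustment over all tested genes and a threshold of 0.05. Called means past that threshold, and lower or higher is used of called genes unless values alone are given. CPM are counts over the TMM-scaled library total. Ratios used log2 (CPM + 0.5) and exact permutation tests. GC content came from GENCODE transcripts, and CPM per kb used the merged length of all annotated exons of a gene.

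Depth of 64538297 to 217925484 counts left little counting error for these genes, and p-values measure the spread between the sampled mice. The members and lists were chosen with earlier results of these data known. The rule named all 10 members, up to 6 called genes per list and comparison, and the 3 genes most like each member; fewer are described. Alternatives were DESeq2 1.42.0, limma-voom, RLE scaling, library totals, no mitochondrial genes, scaling to mature oligodendrocyte genes, other filters, non-robust dispersions, pairs of groups alone and each library left out; those for the 15 libraries were in part added after seeing the data. The procedure was tested on simulated data.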

Additional observations from a re-analysis of the deposited data

Results flagged for a closer look

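In each group of 4 libraries, the highest or lowest value of each factor was compared with the rest by its gap to the nearest library over the range of the group. Of 40 combinations of factor and group, 4 had a library that stood apart by Dixon's 95% limit, where chance alone marks about 1 in 20 groups. Tcf7l2 was at 38.2 CPM in App_NCD 553, against 12.0 to 15.4 CPM in the other App_NCD libraries. St18 was at 267 CPM in the same library, against 81.9 to 91.7 CPM. Both belong to the library with the shift by GC content described above. Sox8 was at 111 CPM in WT_HFD 2, against 131.6 to 135 CPM in the other WT_HFD libraries, and at 132 CPM in App_HFD 547, against 118 to 119.9 CPM in the other App_HFD libraries.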

How the results depend on the processing

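No paired analysis was possible because the groups have no replicate number in common. With all 16 libraries no factor was called in any contrast, and leaving out each library in turn gave 0 to 1 called on the control diet, 0 to 2 on the high-fat diet and 0 to 3 averaged over the diets, with 0 in every diet contrast. The counts above 0 came from leaving out WT_NCD 11 or App_NCD 538 (1 each, Sox8) or App_NCD 553. DESeq2 called 1 (Sox8) for genotype on the control diet, genotype averaged, diet in App and diet averaged, and 0 elsewhere, where it called 15.6%, 23.7%, 0.469% and 0.51% of all tested genes. Limma-voom called 3, 1 and 5 for genotype on the control diet, on the high-fat diet and averaged (33.2%, 30.7% and 46.6% of all tested genes), and 1 (Sox8) for diet in App and diet averaged. Library totals called 1 averaged, beside 3379 of 21768 tested genes. Removal of mitochondrial genes called 1 on the control diet and 1 averaged, beside 1841 and 3867 genes in all. The 8 libraries of the pair called 1 on the high-fat diet, for which the share over all tested genes is not given here. Library totals without App_NCD 553 called 3, 2 and 5, beside 4544, 4592 and 8297 of 22322 tested genes.

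Without App_NCD 553 the counts were 1, 2 and 3, and leaving out 1 more library gave 0 to 3, 0 to 2 and 1 to 3. There DESeq2 called 2 (22.1% of all tested genes) and limma-voom 4 (33.7%) on the control diet, and limma-voom called 7 averaged (46.3%). Scaling to mature oligodendrocyte genes called 0 in all 3, beside 4929, 4549 and 9312 of 22322 tested genes. St18 on the control diet was at 0.29 with 16 libraries but -0.47 by limma-voom and -0.41 with library totals without App_NCD 553. Sox8 turned from -0.37 to 0.034 and from -0.22 to 0.12 under scaling to mature oligodendrocyte genes, a scaling to genes whose own median was below 0. Values called under neither setting changed sign in 147 cases with 16 libraries and in 38 without App_NCD 553. The cause of the other changes was not tested. RLE scaling without App_NCD 553 left Nkx6-2 averaged at an adjusted p of 0.0545. Library totals moved the median of all tested genes to -0.29 on the control diet with 16 libraries.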
